A study of Mus musculus with 461 samples.

Results

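The nuclear genes for the subunits of the mitochondrial respiratory chain and the ATP synthase were followed through 7 days of reprogramming of mouse embryonic fibroblasts. Members were all genes of the expression table whose symbol begins with Ndufa, Ndufb, Ndufc, Ndufs or Ndufv and a digit, with Uqcr, with Atp5, or with Cox and a digit from 4 to 8 and a letter from a to c, and the 4 genes Sdha to Sdhd. Symbols that hold -ps, the mark of a pseudogene, were left out. The rule used names only and no measured value, and it found 82 of 31673 genes. Complex I had 35 members, complex II 4, complex III 8, complex IV 18 and the ATP synthase 15. Ndufa4 and Ndufa4l2 were placed in complex IV, where the Ndufa4 protein is now assigned. A remaining 2, Atp5s and Atp5sl, carry the ATP synthase name but are not among its core subunits. The rule does not reach Cox4i1, Cox4i2 or Ndufab1, and the subunits encoded in mitochondrial DNA lie outside it.

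The series held 461 single cells, captured and amplified on a Fluidigm C1 chip, at days 0, 1, 3, 4, 5 and 7 of the 7F reprogramming protocol. All cells came from OG2 transgenic fibroblasts, which carry a GFP reporter of Oct4, on a mixed background of 129SVJ, C57B6 and CBA. Fibroblasts were kept in medium with serum, and reprogramming cells in the medium called iCD1. The titles of day 0 cells carry the 7F name too. Every title also has a prefix, b1, b2 or b3, which the labels do not explain. Prefix b1 covered days 0, 3, 5 and 7 with 20, 61, 5 and 2 cells, b2 covered days 0, 1, 3, 5 and 7 with 54, 58, 58, 79 and 65 cells, and b3 covered day 4 with 59 cells. Day and prefix cannot be told apart at day 4. Cells are not replicates, so the cells sharing a prefix and a day were added up into what is called a set here, and the 8 sets with 10 or more cells were compared. Days 0 and 3 thus had n = 2 and the others n = 1. Nothing in the labels says whether 2 sets of a day are separate cultures. The p-values thus measure only the spread between these sets, which the main test pooled over all genes tested.

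A cell held 6270 to 12141 genes, and its total ran from 0.319 to 7.00 M counts (M, 1000000). Levels are in CPM, counts per 1000000 counts of the set, with the set's total multiplied by its TMM factor, a scaling for composition. These factors ran from 0.833 in the b2 set of day 0 to 1.15 at day 4. The summed level of the 7 fibroblast markers was 2858 and 2928 CPM in the day 0 sets and 152 at day 7 in b2. That of the 7 pluripotency markers was 0.287 and 0.417 CPM and then 4200 CPM. The 5 b1 cells of day 5 and the 2 b1 cells of day 7 stood apart, with summed fibroblast markers of 1698 and 2047 CPM beside pluripotency markers of 3113 and 2727 CPM. These cells did not enter the main test, and their CPM carry no TMM factor. At day 3 the b2 set had a higher pluripotency sum than the b1 set, 388 against 115 CPM.

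In the respiratory chain, complexes I and II pass electrons from NADH and succinate to ubiquinone, complex III passes them to cytochrome c, and complex IV, cytochrome c oxidase, hands them to oxygen. Protons pumped on the way drive the ATP synthase. Pluripotent cells are known for strong glycolysis, and several complex IV subunits exist as alternative isoforms typical of heart and muscle or of testis.

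Promoter windows were available for 69 of the 82 members from RefSeq (GRCm38.p6), each of 300 bases with 50 after the start of the gene. Short motifs of factors known for control of nuclear genes of mitochondria were searched on both strands, and no motif is contained in another. The NRF1 motif GCGCATGCG was in 8 of 69 members (11.6%) and in 1.81% of the 27025 genes in the table. The ETS motif CCGGAAG, bound by GABPA among others, was in 15 members (21.7%) against 9.12% of all genes, and the YY1 motif AAGATGGC in 10 (14.5%) against 2.88%. The ERR motif TCAAGGTCA was in 2 members (2.90%) against 0.407%, and the CRE motif TGACGTCA in 4 (5.80%) against 1.88%. Members also had more CG pairs in the 250 bases before the start, with a median of 14 against 6 over all genes. A match is a description of the letters only.

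**Figure D1:**
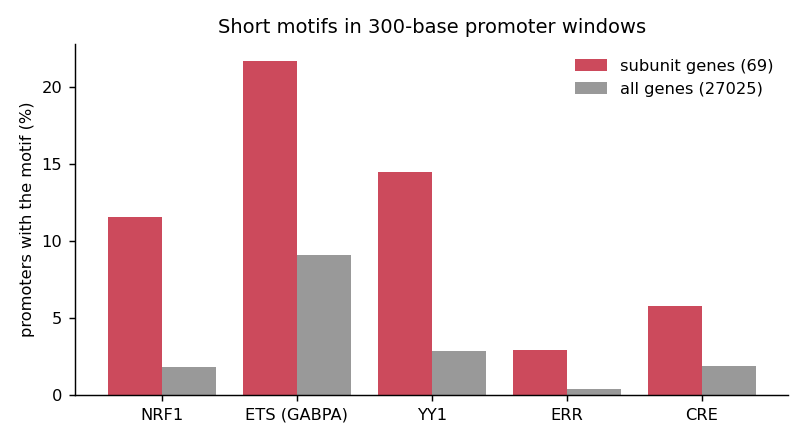
Share of promoter windows (%, vertical axis) that hold each of 5 short motifs, for the 69 subunit genes with a window (red bars) and for all 27025 genes of the table (grey bars). Each motif was found at a higher share among the subunit genes, from 2.90% for ERR to 21.7% for ETS.

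Only 4 members held both the NRF1 and the ETS motif: Cox6a1, Atp5k, Atp5l and Uqcr11. Cox6a1 and Atp5l are shown because, among members with 20 CPM or more, they had the largest decreases at day 7 in complex IV and the ATP synthase, with the motif letters in capitals in the 250 bases before the start. Cox6a1 lies on the minus strand at chr5:115348959-115349208 and Atp5l on the minus strand at chr9:44920743-44920992. In Cox6a1 the NRF1 match is read on both strands.
Cox6a1: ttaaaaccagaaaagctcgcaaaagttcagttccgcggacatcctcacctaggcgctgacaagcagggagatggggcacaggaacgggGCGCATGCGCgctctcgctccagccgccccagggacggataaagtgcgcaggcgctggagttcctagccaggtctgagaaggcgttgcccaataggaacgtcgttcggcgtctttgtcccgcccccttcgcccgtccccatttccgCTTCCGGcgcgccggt
Atp5l: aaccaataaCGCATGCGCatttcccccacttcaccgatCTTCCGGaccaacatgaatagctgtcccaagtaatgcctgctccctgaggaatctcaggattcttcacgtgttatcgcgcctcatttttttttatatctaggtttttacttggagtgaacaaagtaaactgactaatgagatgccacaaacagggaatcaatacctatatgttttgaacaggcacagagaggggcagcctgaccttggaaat

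The promoters of the muscle-type isoform Cox7a1, of its widely expressed counterpart Cox7a2 and of the testis-type Cox7b2 are shown because the isoform results turn on them. Here CG pairs are in capitals. Cox7a1 lies on the plus strand at chr7:30183921-30184170 with 4 CG pairs, Cox7a2 on the minus strand at chr9:79759854-79760103 with 14, and Cox7b2 on the minus strand at chr5:71548206-71548455 with 9. None of the 5 motifs was in these 3 windows.
Cox7a1: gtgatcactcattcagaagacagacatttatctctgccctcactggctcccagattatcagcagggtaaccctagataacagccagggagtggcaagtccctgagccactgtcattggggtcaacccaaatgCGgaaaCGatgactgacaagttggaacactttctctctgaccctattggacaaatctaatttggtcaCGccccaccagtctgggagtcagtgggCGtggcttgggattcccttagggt
Cox7a2: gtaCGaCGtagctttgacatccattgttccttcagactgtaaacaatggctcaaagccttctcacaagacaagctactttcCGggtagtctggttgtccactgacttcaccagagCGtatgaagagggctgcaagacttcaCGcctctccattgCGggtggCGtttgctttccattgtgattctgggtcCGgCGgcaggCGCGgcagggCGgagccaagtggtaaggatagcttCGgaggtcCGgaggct
Cox7b2: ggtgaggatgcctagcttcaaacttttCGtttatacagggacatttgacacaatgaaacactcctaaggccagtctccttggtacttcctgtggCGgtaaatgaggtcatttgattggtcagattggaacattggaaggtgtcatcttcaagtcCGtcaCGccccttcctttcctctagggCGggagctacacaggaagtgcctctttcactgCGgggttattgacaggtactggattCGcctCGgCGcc

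Most members were abundant in every set. Averaged over the 8 sets, 73 of 82 had a TPM (transcripts per 1000000, a scale that corrects for transcript length) of 100 or more, and 29 were detected at 1 TPM or more in all 461 cells. The median level was 342 TPM in complex I, 251 in complex II, 1017 in complex III, 721 in complex IV and 947 in the ATP synthase. Cox6a1, the common isoform of a small complex IV subunit, was highest of all at 4335 TPM. In the ATP synthase the highest was Atp5b, the catalytic beta subunit, at 1776 TPM, and the lowest Atp5k, a membrane subunit, at 473 TPM. Complex III ran from Uqcr11, a small accessory subunit, at 1495 TPM down to Uqcrfs1, the Rieske iron-sulfur protein, at 203 TPM. In complex I Ndufa1 was highest at 927 TPM and Ndufs4 lowest at 109 TPM, and in complex II Sdhb, the iron-sulfur subunit, was highest at 359 TPM and Sdha, the flavoprotein, lowest at 105 TPM. The 5 members under 10 TPM were all tissue-type isoforms of complex IV: Cox6a2, Cox7b2, Cox8b, Cox8c and Ndufa4l2.

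Together the 82 genes took 3.98% of a cell's TPM in the median b1 cell of day 0 and 5.81% in the median b2 cell of day 0. The median was 6.46% at day 1, 5.34% and 4.76% in the b1 and b2 sets of day 3, 4.47% at day 4, 4.54% at day 5 in b2 and 4.79% at day 7 in b2. The 2 day 0 sets were thus farther from each other than the day 3, 4, 5 and 7 sets were among themselves, and the highest median belonged to day 1. Over the sets of the fit, the quartiles lay closest together at day 7, at 43528 and 51658 summed TPM over 65 b2 cells. The widest range was that of the 61 b1 cells of day 3, from 8240 to 107993. Within a set the summed TPM of complex I went with that of the ATP synthase across cells, with Spearman's rho between 0.49 at day 7 and 0.90 at day 4 (20 to 79 cells a set). These cells share library, depth and the TPM total, and the sum of all members also had a rho of 0.07 to 0.49 with the cell's depth.

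**Figure D2:**
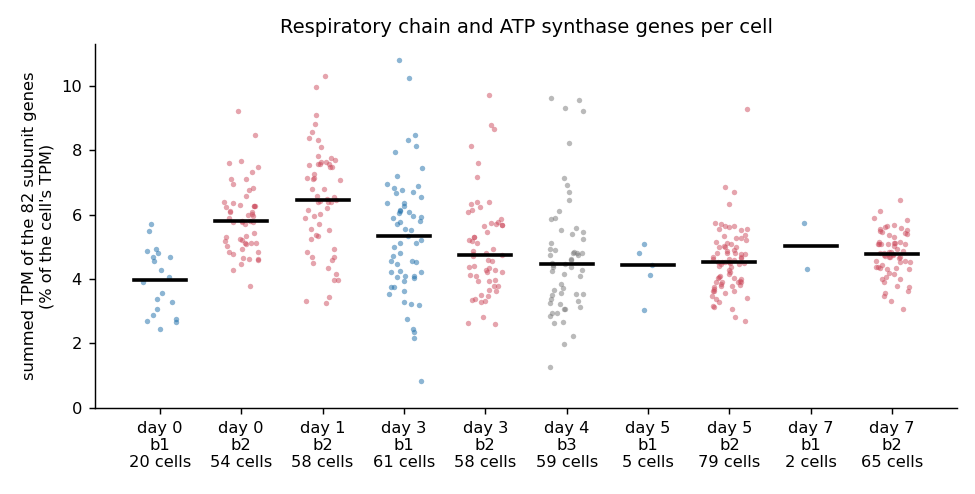
Summed TPM of the 82 subunit genes as a percentage of the cell's TPM (vertical axis), 1 point a cell, by day and title prefix (b1 blue, b2 red, b3 grey), with the median of each set as a black line. The medians run from 3.98% in the b1 cells of day 0 to 6.46% at day 1.

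The first comparison asked which subunit genes differed from day 0 at each later day. With edgeR's quasi-likelihood test and Benjamini-Hochberg adjustment over the 22378 genes tested, all 82 members were tested and no member passed an adjusted p of 0.05 at days 1, 3, 4 or 5. Over all genes, 1.18% passed at day 1, 3.14% at day 3, 3.03% at day 4 and 4.73% at day 5. At day 7 a single member, Cox7a1, passed, which is 1 of 82 against 6.6% of all genes. The test over all days together called no member, against 9.28% of all genes, and its smallest adjusted p among the members was 0.143, for Cox6a1. At an unadjusted p under 0.05 the test gave 3, 3, 2, 5 and 4 members at days 1, 3, 4, 5 and 7. Of all 22378 genes, 1595, 2591, 2302, 3064 and 3657 fell under that cut, a larger share than among the members at each day. Over all days 5 members fell under it, and all genes were not counted there. DESeq2 called Cox7a1 at days 3, 5 and 7 and over all days.

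No single gene but Cox7a1 passed, and the side of zero on which the members lay depended on the day 0 set and the scale. At day 1 the fold changes of 74 of 82 were above zero, with a median of 0.39 on the log2 scale. That median was 0.11 without the b1 set of day 0, with 56 above zero, and 0.79 without the b2 set. At days 3, 4, 5 and 7 the medians were -0.18, -0.41, -0.33 and -0.34, with 52, 74, 66 and 64 members below zero. Over all 7154 genes with 20 CPM or more the medians were -0.02, -0.11, -0.23, -0.08 and -0.06 at days 1 to 7. Without the b2 set of day 0 they were 0.19, -0.07, 0.0036 and -0.06 at days 3, 4, 5 and 7, with 25, 49, 40 and 45 members below zero. Without the b1 set they were -0.44, -0.68, -0.51 and -0.58. The lower level at the later days thus rested on the b2 set of day 0. With library size only, without TMM factors, the medians of days 3, 4, 5 and 7 were 0.13, -0.03, -0.10 and -0.16. In the limma fit to mean TPM (pseudocount 1) they were 0.05, 0.02, -0.04 and -0.01, with 31, 35, 44 and 41 of 80 members below zero. The decrease against both day 0 sets was thus not seen on the TPM scale.

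In the edgeR fit with TMM factors, all 35 members of complex I and all 15 of the ATP synthase had fold changes below zero at day 4, with medians of -0.45 and -0.41. This did not hold for the members as a whole in other fits. Of all 82, those above zero at day 4 were 6 in the edgeR fit with TMM factors and 33 with library size only. Without the b2 set of day 0 they were 30. In limma on TPM, which held 80 members, 45 were above zero. In the edgeR fit with TMM factors the day 4 median was -0.76 in complex II, -0.59 in complex III and -0.33 in complex IV. At day 1 the medians were 0.37 in complex I, 0.12 in complex II, 0.48 in complex III, 0.73 in complex IV and 0.40 in the ATP synthase. No difference between complexes was tested.

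**Figure D3:**
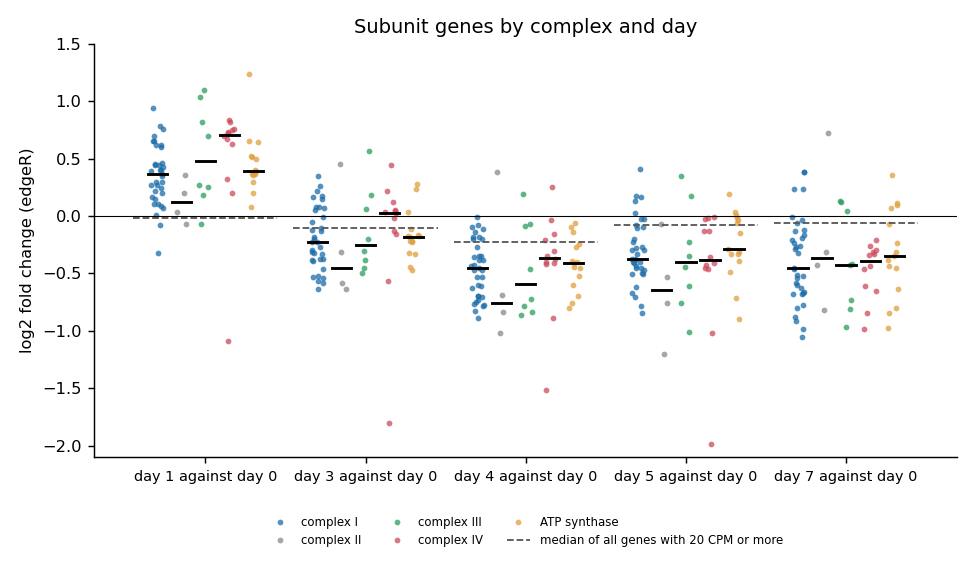
Log2 fold change from the edgeR fit (vertical axis) of the 74 subunit genes with 20 CPM or more, 1 point a gene, coloured by complex, at each day against day 0. Short black lines are medians of a complex and dashed lines the median of all genes with 20 CPM or more. In this fit most points lie above zero at day 1 and below zero at day 4. In limma on TPM, 45 of the 80 members tested lay above zero at day 4.

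Among the members with 20 CPM or more, the largest decreases at day 7 were of similar size in all complexes, and none of them passed the test. Cox6a1 was at 1335 and 2259 CPM in the b1 and b2 sets of day 0, 2067 at day 1, 1191 and 1231 at day 3, 970 at day 4, 885 at day 5 and 909 at day 7. The sets of days 3 to 7 all lay below both day 0 sets, and the day 0 sets differed from each other by more than the sets of days 3 to 7 did. Its log2 fold change was -0.98 at day 7 (SE 0.45, edgeR adjusted p = 0.219). Atp5l, a membrane subunit of the ATP synthase, was at 349 and 528 CPM at day 0, 618 at day 1 and 223 at day 7, a log2 fold change of -0.98 (SE 0.48, edgeR adjusted p = 0.282). The largest decreases in the other complexes were Ndufa3, an accessory subunit of complex I, at -1.05 (SE 0.55), Uqcrq of complex III at -0.97 (SE 0.51) and Sdhc, a membrane anchor of complex II, at -0.82 (SE 0.54). Without the b1 set of day 0, Cox6a1 passed at days 4, 5 and 7 (day 7 log2 fold change -1.31, edgeR adjusted p = 0.0112).

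The largest increases at day 7 in the other complexes were smaller. Sdha, which takes the electrons from succinate, went from 110 and 160 CPM at day 0 to 223 at day 7, a log2 fold change of 0.72 (SE 0.49, edgeR adjusted p = 0.514), while the other 3 complex II genes were below zero. Ndufs6 of complex I had 0.39 (SE 0.52), Atp5g1 0.36 (SE 0.44) and Uqcrfs1 0.13 (SE 0.49). Uqcrfs1 had 310 CPM at day 1 against 125 and 176 at day 0, and Uqcr11 had 562 against 203 and 321 CPM. Neither passed at day 1 (edgeR adjusted p = 0.554 and 0.414).

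Atp5g1 had the lowest adjusted p of all members at day 1. It encodes subunit c, also made from Atp5g2 and Atp5g3, and several identical copies of subunit c form the ring that turns in the membrane. Atp5g1 was at 354 and 527 CPM at day 0, 1039 at day 1, 555 and 485 at day 3, 413 at day 4, 502 at day 5 and 566 at day 7. Day 1 stood above every other set of the fit, with a log2 fold change of 1.24 (SE 0.43, edgeR adjusted p = 0.201). Without the b2 set of day 0 it was 1.55 with an adjusted p of 0.0161. The share of Atp5g1 in the TPM of the 3 subunit c genes was 28.1% and 37.4% at day 0, 47.4% at day 1 and 43.7% at day 7. The estimated count of Atp5g1 was not a whole number in 98.7% of the cells that had counts of it. Some of its reads were thus divided with other genes, to an extent that this share of cells does not measure. The estimate was not whole in more than 5% of the cells with counts for 21 of the 82 members. Ndufc1 (94.3%), Cox5a (92.2%) and Atp5b (72.7%) were among them.

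The second comparison took the sets of 1 prefix at a time, because b1 and b2 both had cells at days 0 and 3. It has no replicates and no test. Ratios are of CPM plus 0.5, over the 74 members with 20 CPM or more. At day 0, 73 of the 74 were higher in b2 than in b1, by a median of 0.57 on the log2 scale, while over all genes with 20 CPM or more 4494 of 7154 were higher, by a median of 0.24. All 35 complex I members, all 4 of complex II and all 8 of complex III were higher in the b2 cells of day 0.

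From day 0 to day 3 the prefixes went opposite ways. In b1, 63 of 74 members were higher at day 3, by a median of 0.31, and in b2, 68 of 74 were lower, by a median of -0.59. Over all genes with 20 CPM or more, 3295 of 7154 were higher at day 3 in b1 and 3944 were lower in b2. Their medians were -0.07 in b1 and -0.13 in b2. There were 57 members that were higher at day 3 in b1 and lower in b2, and none the other way. The day 0 sets are the denominators, and the members' median gap of 0.57 between them enters this split. The split was not counted over all genes. A further 6 were higher in both and 11 lower in both. In the ATP synthase, 14 of 15 were higher at day 3 in b1, and all 15 were lower in b2. With library size only the medians were 0.57 in b1 and -0.26 in b2, with the same signs.

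At day 3 itself the b2 set was lower than b1 for 63 of the 74 members, by a median of -0.26, the reverse of day 0. Over all genes with 20 CPM or more, 2785 of 7154 were lower in b2, and the median was 0.15. The 2 prefixes also differed in depth and genes per cell: the median b1 and b2 cells held 9263 and 7743 genes at day 0 and 9893 and 8670.5 at day 3. The part of these differences in the result was not tested.

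**Figure D4:**
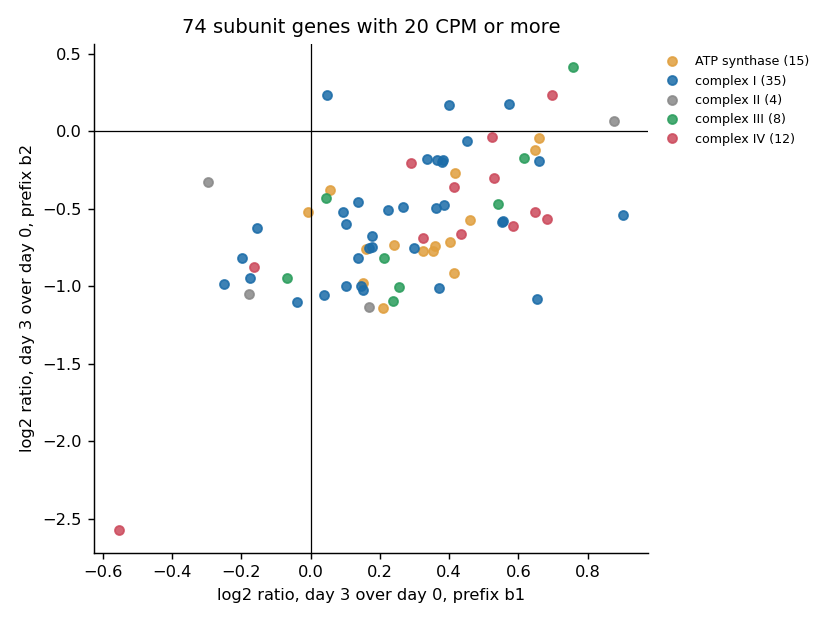
Log2 ratio of day 3 over day 0 in prefix b1 (horizontal axis) and in prefix b2 (vertical axis) for the 74 subunit genes with 20 CPM or more, 1 point a gene, coloured by complex. The lower right field, higher in b1 and lower in b2, holds 57 genes, and the upper left field holds none. The day 0 sets are the denominators, and 73 of the 74 genes were higher in b2 than in b1 at day 0. The split was not counted over all genes. Of all 7154 genes with 20 CPM or more, 3295 were higher at day 3 in b1 and 3944 were lower in b2.

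Within b2, which had cells at 5 of the 6 days, the members were near their day 0 level at day 1. Their median log2 ratio was 0.11, with 52 of 74 higher. Of all 7154 genes with 20 CPM or more, 3129 were higher at day 1, and the median was -0.11. Between days 1 and 3, 73 of 74 were lower, by a median of -0.81, where all genes with 20 CPM or more had a median of -0.05. On the mean TPM scale that median was -0.36, with 60 of 74 lower. Later ratios lay near zero. Day 5 over day 3 gave a median of 0.02, with 38 of 74 higher. Day 7 over day 5 gave a median of -0.07, with 27 of 74 higher. Over all 7154 genes with 20 CPM or more, 3589 and 3806 were higher in these 2 ratios, with medians of 0.003 and 0.05. At day 7, 71 of 74 were lower than at day 0 in b2, by a median of -0.59. Over all genes with 20 CPM or more, 3947 of 7154 were lower, by a median of -0.13. The TMM factors in b2 were 0.833 at day 0 and 1.00 at day 7. The median share of a cell's TPM held by the 82 genes was 5.81% and 4.79% in these sets.

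Cox7a1 was the only member called in the main test. It encodes the heart and muscle isoform of subunit 7A of cytochrome c oxidase, for which most tissues use Cox7a2. Cox7a1 was at 0.341 and 0.867 CPM in the day 0 sets, 4.34 at day 1, 5.29 and 5.60 at day 3, 2.84 at day 4, 9.34 at day 5 and 21.9 at day 7. Every later set lay above both day 0 sets, and the order of the days was broken only by day 4, which is the b3 set. The log2 fold change at day 7 was 5.17 (SE 1.64, edgeR adjusted p = 0.0293). Day 7 is 1 set here, as are days 1, 4 and 5. The spread behind their p-values comes only from the pairs of sets at days 0 and 3. The fit had 2 residual and infinite prior degrees of freedom. The variance was thus taken from a trend over all 22378 genes tested, not from Cox7a1 alone. The lone set is assumed to vary like the pairs. At days 1, 3, 4 and 5 the log2 fold change of Cox7a1 was 2.84, 3.16, 2.22 and 3.94 and passed in none of them (smallest edgeR adjusted p = 0.163, at day 5). The call at day 7 was lost in limma on TPM with pseudocount 0.1 (adjusted p = 0.0765), with the prefix as a block (0.171), with all 10 sets (0.291), on dropping the day 0 b1 set (0.111), and on dropping either day 3 set (0.0927 for b1 and 0.0903 for b2), with the log2 fold change between 4.54 and 5.96 in these fits.

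In counts, Cox7a1 had 150 at day 0 and 4583 at day 7 in the b2 set, a ratio of 30.2 (95% exact interval 25.6 to 35.7, counting error only). The day 0 counts came from few cells, 4 of 20 in b1 and 7 of 54 in b2, where a single cell held 51.9% of them. At day 7, 50 of 65 b2 cells had the gene, or 76.9% (95% exact interval 64.8 to 86.5%). This interval treats the cells of the set as independent and does not cover the spread between sets. The top cell at day 7 held 9.75% of the counts. With the top cell of every gene dropped from every set, the log2 fold change was 5.86 (edgeR adjusted p = 0.0113). In summed cells, more cells with the gene and more RNA per cell cannot be told apart by CPM alone.

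As a share of the TPM of the 3 subunit 7A genes, Cox7a1 had 0.209% and 0.512% at day 0, 1.74% at day 1, 7.25% at day 5 and 19.1% at day 7 in b2. Cox7a2 stayed the main isoform, with 59.5% in the b2 cells of day 0 and 53.4% at day 7. Cox7a2l, a related gene whose protein is a supercomplex factor rather than a plain isoform, made up the rest. The median over the day 7 cells of the per-cell share of Cox7a1 was 12.7%, below the 19.1% of the summed TPM.

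Among the 8 muscle markers, Myod1 was at 0 in every set, Myog was at 0 in all sets but the b1 set of day 3, and Ckm was at 1.19 CPM or less. Their summed level was 33.4 and 22.1 CPM in the day 0 sets and 98.7 at day 7, and 93.6 of the 98.7 CPM came from Ttn, the one marker called higher at day 7. The rest of the list was at or near 0 at day 7.

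**Figure D5:**
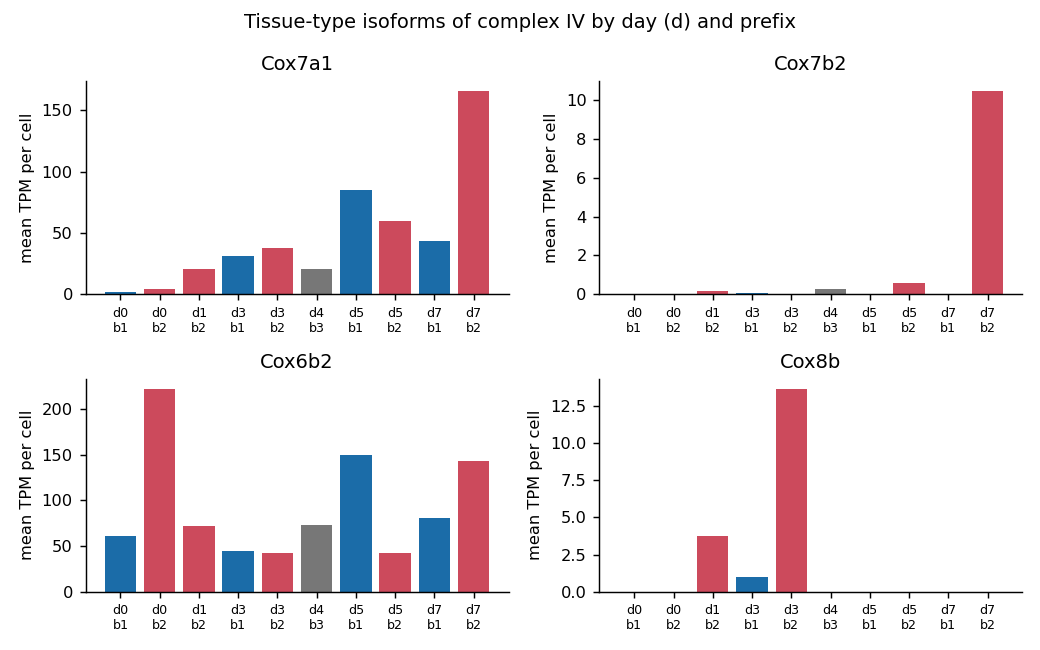
Mean TPM per cell (vertical axes, each its own scale) of 4 tissue-type complex IV isoforms in each set, by day (d) and prefix (b1 blue, b2 red, b3 grey). Cox7a1 is highest at day 7 in b2, Cox7b2 reaches 10.5 TPM in that set and stays under 1 TPM elsewhere, Cox6b2 is high at days 0 and 7 in b2 and in the 5 b1 cells of day 5, and Cox8b appears only at days 1 and 3.

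Cox7b2, a testis-type isoform of subunit 7B, had no count in the 74 cells of day 0 and 495 counts in 12 of 65 b2 cells at day 7, at least 163-fold higher against a floor of 3 counts over the day 0 sets. A single cell held 34.3% of these counts. The edgeR adjusted p at day 7 was 0.174, and it was 0.0336 and 0.0265 in the limma fits to mean TPM with pseudocounts 1 and 0.1. At day 5 there were 28 counts in 3 of 79 b2 cells, and at days 1, 3 and 4 no more than 3 counts a day. All 12 day 7 cells with Cox7b2 also had counts of Cox7a1, which 50 of the 65 cells had. Even at day 7 in b2, Cox7b2 made up 1.34% of the TPM of subunit 7B, the rest being Cox7b.

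Cox6b2, the testis-type isoform of subunit 6B, showed another course. It was at 21.7 and 68.2 CPM in the b1 and b2 sets of day 0, 21.2 at day 1, 14.7 and 11.1 at day 3, 15.7 at day 4, 11.4 at day 5 and 35.6 at day 7. The day 0 sets bracketed day 7 and lay above the sets of days 3 to 5. Its log2 fold change was -1.81 at day 3 (SE 0.74, edgeR adjusted p = 0.218) and it passed at day 3 only without the b1 set of day 0 (-2.41, adjusted p = 0.0311). Its share of subunit 6B was 6.58% and 16.2% at day 0, 4.69% at day 5 and 12.6% at day 7 in b2. In the b1 set of day 0, 47.7% of its counts came from 1 cell.

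The common isoforms had smaller fold changes at day 7, and none passed. On the log2 scale these were -0.29 for Cox6b1 (SE 0.47), -0.31 for Cox8a (SE 0.48), -0.33 for Cox7a2 (SE 0.48), -0.46 for Cox7b (SE 0.48) and -0.26 for Ndufa4 (SE 0.47). For subunit c they were 0.10 for Atp5g2 (SE 0.48) and -0.44 for Atp5g3 (SE 0.45).

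The remaining isoforms were rare. Cox8b, the muscle isoform of subunit 8, had 53 counts in 4 of 58 cells at day 1 and 281 counts at day 3 in 2 b1 and 3 b2 cells, and none at days 0, 4, 5 and 7. Cox8c, a testis isoform, had 26 counts in 3 cells at day 5 and 5 counts in 1 cell at day 7. Cox6a2, the muscle isoform of subunit 6A, was found in 1 cell each of 3 sets. Ndufa4l2, known as a hypoxia-induced relative of Ndufa4, had 215 counts in 3 cells at day 1, 369 over 3 cells at day 3 and 191 in 2 cells at day 7. Cox4i2, the lung-type and hypoxia-linked partner of Cox4i1 and no member, never exceeded 0.213% of the 2 genes' TPM.

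Related genes outside the rule were read off the same fit. None of the 16 complex I, 4 complex II, 6 complex III, 21 complex IV and 3 ATP synthase assembly factors passed at any day, and none of 13 citric acid cycle genes did, although Idh3a, a subunit of isocitrate dehydrogenase, passed over all days together (edgeR adjusted p = 0.0301). Cyct, the testis form of cytochrome c, had no count at day 0, 475 counts in 8 of 79 b2 cells at day 5 and 1986 counts in 25 of 65 b2 cells at day 7, at least 653-fold higher, and it passed at both days (edgeR adjusted p = 0.0403 and 0.0111). Cyct also had 50 counts at day 1 and 143 over the day 3 sets, and none at day 4. The somatic Cycs was at 336 and 512 CPM at day 0 and 267 at day 7 and did not pass. Of 5 germ cell markers, none passed as higher at day 5 or day 7 (smallest edgeR adjusted p = 0.135 and 0.0749). Their summed level was 2.46 and 1.30 CPM in the day 0 sets, 15.4 at day 5 and 29.9 at day 7 in b2, with Tnp2 at 0 at day 7. Of the 65 day 7 b2 cells, 12 had Cox7b2, 25 had Cyct and 5 had both. Of the 12 cells with Cox7b2, 8 also had Sycp3, 6 Stra8, 3 Dazl and 1 Ddx4, germ cell markers that 18, 11, 16 and 5 of the 65 cells had. The part of germ-cell-type expression in these values was not tested.

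Slc25a4, the heart and muscle type ATP/ADP carrier, passed over all days together (edgeR adjusted p = 0.0129) and at no single day. It was at 1105 and 1287 CPM at day 0, 1993 at day 1, 2584 and 2022 at day 3, 2012 at day 4, 1078 at day 5 and 709.5 at day 7 in b2. Days 1, 3 and 4 lay above both day 0 sets, and days 5 and 7 below both.

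Chchd10, a protein of the space between the mitochondrial membranes, was above its day 0 level at every later day of the fit. It was at 7.04 and 9.61 CPM at day 0, 78.6 at day 1, 82.6 and 135 at day 3, 85.5 at day 4, 108 at day 5 and 53.2 at day 7. No later set of the fit overlapped the day 0 sets, and the log2 fold change was 3.24 at day 1 (edgeR adjusted p = 1.65e-05) and 2.68 at day 7 (0.000181). In the 5 b1 cells of day 5, outside the fit and without a TMM factor, it was 12.1 CPM.

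Of 14 regulators of mitochondrial gene expression, 2 passed. Pprc1, a coactivator of the PGC-1 family, was at 30.9 and 31.9 CPM at day 0 and 118 at day 7, a log2 fold change of 1.91 (SE 0.60, edgeR adjusted p = 0.0275). Esrrb fell at days 5 and 7, by 2.83 and 3.06 on the log2 scale, from 1304 and 954 CPM at day 0. Gene-level counts do not separate an endogenous gene from an introduced copy. The other 12, Nrf1, Gabpa and Yy1 among them, did not pass at any day.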

How the data were processed

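Libraries of 461 single cells were measured. The authors deposited expected counts per gene and TPM per gene, made with RSEM 1.2.22 after bcl2fastq per the submitters' processing notes. The aligner was not given in the sources used here, nor was the genome build. All table columns were mapped to cells (0 left unmapped), and the count table held 0 mitochondrially encoded genes.

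For each day and title prefix, the cells' expected counts were added and then rounded. The 8 sets with 10 or more cells were fitted in R 4.3.3 with edgeR 4.0.16 (TMM factors, low-count filter by day, 22378 genes, quasi-likelihood test, Benjamini-Hochberg adjustment, threshold 0.05). Scripts were tested on simulated data. Ratios within a prefix used CPM plus 0.5 and were chosen after seeing the data. Alternatives used DESeq2 1.42.0, limma 3.58.1 on log2(mean TPM + 1 or 0.1), other scaling, thinning to 300000 counts a cell, a prefix block and left-out sets. Detection meant 1 TPM or more, and intervals are exact (95%). Named were each member that passed, in each complex the largest rise and fall at day 7 among members with 20 CPM or more and the most and least abundant member, all isoforms of a subunit, and genes of other lists that passed. Others (Cox5a, Ndufc1 and the day 1 values) were chosen after their values were seen. Members and lists were chosen with earlier results of these data known.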

Additional observations from a re-analysis of the deposited data

Results flagged for a closer look

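From day 0 to day 3 the 74 members with 20 CPM or more had a median log2 ratio of 0.31 in prefix b1 and -0.59 in prefix b2, opposite directions under the same contrast. At day 0, 73 of the 74 were already higher in b2 than in b1, by a median of 0.57. The difference between the prefixes was not tested, since each had 1 set a day.

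Cox7a1 also had counts in the small sets outside the main fit, whose CPM carry no TMM factor. It was at 10.2 CPM in the 5 b1 cells of day 5, where 1 cell held 58.3% of the counts, and at 6.72 CPM in the 2 b1 cells of day 7, both above the 0.341 and 0.867 CPM of day 0.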

How the results depend on the processing

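Cox7a1 was called at day 7 in the main test. No member passed at day 7 with all 10 sets (0), with the prefix as a replicate block (0), or on dropping either day 3 set. Dropping 1 set gave 0 to 1 members there. Limma on TPM gave 2 with pseudocount 1, Cox7a1 and Cox7b2, and 1 with pseudocount 0.1, Cox7b2. Leaving out 1 set gave 0 to 1 members at days 1, 3 and 4, 0 to 2 at day 5 and 0 to 8 over all days, with 8 on dropping the day 0 b1 set and 4 on dropping the day 0 b2 set. The share of all genes called was not counted in the fits with 1 set left out. Their counts are thus not read as a result about the members. In the main test over all days, 9.28% of all genes passed. DESeq2 gave 1 at day 3, 1 at day 5 and 1 over all days, each Cox7a1. The prefix block changed no other call. The b2 minus b1 differences at days 0 and 3 correlated at 0.076 across 22378 genes and at 0.116 across the 7154 with 20 CPM or more, and the prefixes were not taken to pair the sets. The median log2 fold change at day 4 was 0.023 in limma with pseudocount 1 and 0.023 with 0.1. Uqcrfs1 at day 7 turned to -0.038 with all 10 sets and -0.0076 with the block, and ran from -0.092 to 0.39 on leaving out 1 set. Cox6b2 at day 7 ran from -0.94 to 0.71 on leaving out 1 set, with 0.71 on dropping the day 0 b2 set, and was 0.29 in limma with either pseudocount. The cause was not tested. With 1 set at most days, small changes were not detectable.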
